A study of Mus musculus with 10 samples.

Results

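Lysosomal hydrolases and lysosomal membrane proteins were followed in sorted mouse hippocampal microglia as a group of 40 genes. The group was set by gene symbol: enzymes and membrane proteins of the lysosome, without the cathepsins and without the proton pump. All 40 were among the 19782 genes of the deposited expression table, and all 40 were among the 12505 genes with enough counts to be tested. RNA sequencing had been done on microglia sorted as CD45low CD11b+ cells, in 10 libraries of 3 groups. Repopulated 5xFAD microglia (3 libraries) came from 5xFAD mice that ate chow with 290 mg/kg PLX3397, which blocks the CSF1 receptor and so depletes microglia, for 1 month beginning at the age of 4 months, and then ate normal chow for 1 further month. Control 5xFAD microglia (3 libraries) came from 5xFAD mice on normal diet, and wild-type microglia (4 libraries) came from WT mice on normal diet. No label gives the age of the mice on normal diet. 5xFAD mice are a transgenic model of Alzheimer's disease, with transgenes driven in neurons by the Thy1 promoter. The labels do not say whether libraries came from separate mice or from pools, nor how many microglia the drug had left, so each p-value measures the spread between these libraries, which may be technical.

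Lysosomes are acidic compartments in which microglia break down what they engulf, including debris, myelin and amyloid. Their soluble hydrolases each cut one kind of bond in sugars, lipids, proteins or nucleic acids, activator proteins present lipids to these enzymes, and membrane proteins protect the limiting membrane or carry the products out. Loss of single members causes lysosomal storage diseases, many of which affect the brain. Many lysosomal genes carry E-box-like sites of the CLEAR type, bound by the transcription factors TFEB and TFE3.

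Compared with wild-type microglia, control 5xFAD microglia had more RNA for 16 of the 40 genes (40%, against 10.1% of all tested genes) and less for 4 (10%, against 8.04%, a share near the background). No member passed the test between repopulated and control 5xFAD microglia, where 0.568% of all tested genes did. Repopulated microglia had more RNA than wild-type microglia for 9 members (22.5%, against 3.4% of all tested genes) and less for 1 (2.5%, against 0.784%). The members with the greatest increases in control 5xFAD microglia were Gla (4.61-fold), Cd63 (3.12-fold), Npc2 (2.61-fold) and Gm2a (2.54-fold), and the greatest decrease was that of Sgsh (3.32-fold lower). Levels are given below as CPM, the counts scaled to a common library size (trimmed-mean scaling), for comparisons of 1 gene between libraries, and as TPM, the deposited length-normalised transcript level, where genes of different length are set side by side. A member was called where the quasi-likelihood test of edgeR, fitted over all 12505 genes with Benjamini-Hochberg adjustment, gave an adjusted p of at most 0.05. In a sorted bulk population, fewer cells of one kind and less RNA per cell cannot be told apart.

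The 10 libraries held between 18501136 and 23286814 estimated counts. Microglial markers summed to 25408 to 30069.7 CPM in repopulated, 27068 to 28791 CPM in control 5xFAD and 30590.1 to 33791 CPM in wild-type libraries. Of these 12 markers, 5 fell in control 5xFAD against wild-type microglia (Tmem119, Cx3cr1, Sall1, Csf1r and P2ry12), against 8.04% of all tested genes. None was called higher, and 4 had log2 fold changes above 0. These were Siglech (0.42, all control above all wild-type libraries), Gpr34 (0.40), Fcrls (0.18) and Aif1 (0.13). Only Tmem119 was called in repopulated against control 5xFAD microglia, where it rose (log2 fold change 0.88, SE 0.18, adjusted p = 0.0468, edgeR). Only Cx3cr1 was called in repopulated against wild-type microglia, where it fell (log2 fold change -0.59, SE 0.16, adjusted p = 0.0490, edgeR). Neuron markers summed to 5.08 to 11.3 CPM, 4.29 to 8.87 CPM and 11.8 to 67.3 CPM in the repopulated, control 5xFAD and wild-type libraries in that order, and markers of border macrophages and monocytes to 74.8 to 114, 103 to 212 and 89.8 to 167 CPM. Neutrophil markers summed to 67.4 to 168 CPM in repopulated and 32.2 to 253 CPM in wild-type libraries, and among control 5xFAD libraries to 322 CPM in library 2, against 17.8 and 24.8 CPM in libraries 1 and 3. Erythrocyte markers reached 281 CPM in wild-type library 3 and at most 20.7 CPM elsewhere. Astrocyte markers summed to 243 to 249 CPM in repopulated, 237 to 254 CPM in control 5xFAD and 224 to 565 CPM in wild-type libraries. Endothelial markers summed to 30.2 to 38.1, 34.2 to 38.0 and 14.9 to 39.0 CPM in that order. No marker of any list was at 0 in all 10 libraries, and the part of these cells in the results was not tested. Y-linked transcripts were near absent in control 5xFAD libraries 1 and 3 (summed level 8.47 and 5.61 CPM) and in wild-type library 2 (15.5 CPM), against 342 to 528 CPM in the other 7 libraries, all 3 repopulated ones included. Control 5xFAD library 2, the only control library with Y-linked transcripts, was the lowest of its group for 33 of the 40 members, against 40.3% of all tested genes, and control library 3 was the highest for 28, against 33.7% of all tested genes. Among wild-type libraries, library 2 was the lowest for 24 members, against 22.3% of all tested genes. With the 3 libraries that nearly lacked Y-linked transcripts left out, which leaves control 5xFAD library 2 alone in its group and assumes that it varies like the others, 5 members were called higher (against 4.94% of all genes tested in that setting) and 6 lower (against 3.63%) in control 5xFAD than in wild-type microglia. Control and wild-type values below are therefore given library by library.

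In level, the 40 members ranged widely. Their summed level was 17527 ± 211 TPM in repopulated microglia, 17324 ± 2389 TPM in control 5xFAD microglia and 12801 ± 728 TPM in wild-type microglia (SD, n = 3, 3 and 4), or 1.75%, 1.73% and 1.28% of all transcripts. Cd68, the macrosialin gene of macrophages, led the order in every group with 4193 ± 362 TPM in repopulated, 3967 ± 826 TPM in control 5xFAD and 2698 ± 64.3 TPM in wild-type microglia. Below it over all libraries stood Cd63, a tetraspanin of late endosomes, Laptm5, a lysosomal membrane protein of blood cells, and Hexa, the alpha subunit of beta-hexosaminidase. Averaged over all libraries, 4 members lay above 1000 TPM, 21 above 100 TPM and 37 above 10 TPM, and the lowest was Sgsh with 3.44 ± 0.447, 2.19 ± 0.347 and 9.30 ± 3.63 TPM in repopulated, control 5xFAD and wild-type microglia. Of the 39 pairs of neighbours in the order within a group, the ranges over its libraries overlapped in 26 pairs in repopulated, 32 in control 5xFAD and 34 in wild-type microglia. The lead of Cd68 exceeded this spread in repopulated microglia, where its lowest library had 3881 TPM and the highest of Cd63, the next member, 2719.7 TPM, and in wild-type microglia, where the lowest of Cd68 was 2613 TPM and the highest of Laptm5 was 1839 TPM. In control 5xFAD microglia the ranges of Cd68 and Cd63 overlapped. Of the 40, 33 members changed rank between control 5xFAD and wild-type microglia, by at most 6 places. Each member was put in only one class. Npc1 and Scarb2, also of the lysosomal membrane, are counted with lipid handling, and the phosphatase Acp2 with the hydrolases of proteins and nucleic acids. The 9 genes classed as membrane proteins held 10131 ± 220 TPM in repopulated, 9769 ± 1691 TPM in control 5xFAD and 6993 ± 216 TPM in wild-type microglia. The 7 glycosaminoglycan hydrolases held 1037 ± 45.1, 983 ± 159 and 628 ± 76.9 TPM. The 4 hydrolases of proteins and nucleic acids summed to 913 ± 1.22, 919 ± 123 and 882 ± 80.4 TPM, a difference between groups smaller than the spread within the control 5xFAD group.

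**Figure D1:**
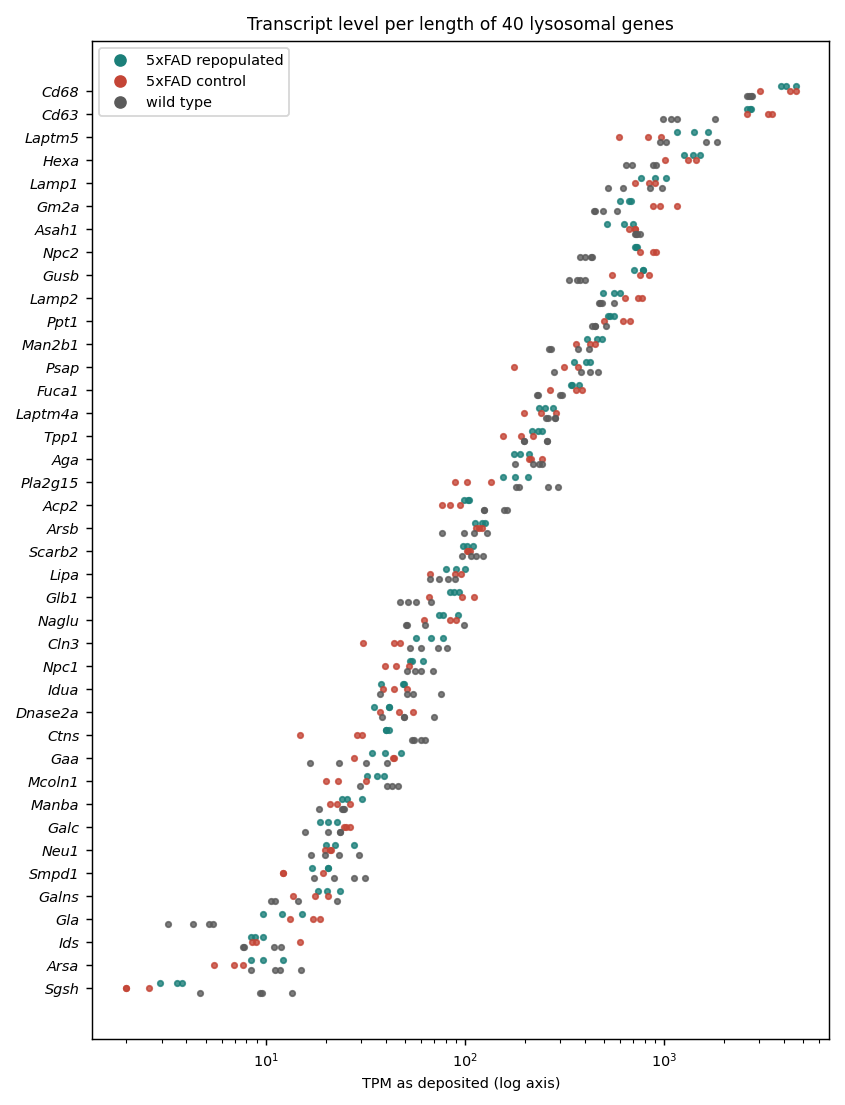
Level of each of the 40 members in TPM (log scale) in every library, ordered by the mean over all 10 libraries, with repopulated, control 5xFAD and wild-type libraries in separate colours. Cd68 stands at the top and Sgsh at the bottom, and over all 10 libraries the ranges of neighbouring members overlap.

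Promoter windows, from 250 bases before to 50 bases after an annotated transcript start, were found for 36 of the 40 members in RefSeq (GRCm38.p6), with 2 windows each for Psap, Ctns and Cln3. The hexamer CACGTG, which is its own reverse complement and is the core of the CLEAR site, occurred in the windows of 9 of these 36 members (25.0%), against 11.5% of the 10081 tested genes with a window and 7.15% of all 32851 windows of that length. The longer letters GTCACGTG, read on both strands and containing the hexamer, occurred in 8 of the 36 members (22.2%) and in 4.68% of the 10081 genes. The 9 members were Gla, Glb1, Gaa, Naglu, Sgsh, Arsa, Lamp1, Mcoln1 and Cln3. They did not move as one group: in control 5xFAD against wild-type microglia Gla, Glb1, Gaa and Naglu rose, Sgsh fell and Lamp1, Arsa, Mcoln1 and Cln3 were not called. The whole windows of Gla and Sgsh are shown because these were the members with the greatest increase and the greatest decrease, and 40 bases are shown for the other 7. Capitals mark CACGTG, and each sequence reads 5′ to 3′ on the strand of the gene.
Gla, chrX:134600956-134601255, minus strand: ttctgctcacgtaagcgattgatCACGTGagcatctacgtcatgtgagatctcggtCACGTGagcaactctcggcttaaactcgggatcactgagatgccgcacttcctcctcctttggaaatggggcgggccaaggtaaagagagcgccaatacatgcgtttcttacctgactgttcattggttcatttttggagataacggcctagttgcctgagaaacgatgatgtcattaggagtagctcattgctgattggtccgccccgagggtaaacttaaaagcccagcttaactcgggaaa
Sgsh, chr11:119355461-119355760, minus strand: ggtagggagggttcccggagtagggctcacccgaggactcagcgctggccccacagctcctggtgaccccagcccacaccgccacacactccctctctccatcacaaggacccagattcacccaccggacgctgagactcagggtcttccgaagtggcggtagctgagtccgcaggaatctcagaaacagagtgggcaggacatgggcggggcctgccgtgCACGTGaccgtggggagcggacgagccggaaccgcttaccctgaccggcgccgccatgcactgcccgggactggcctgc
Glb1, chr9:114401013-114401052, plus strand: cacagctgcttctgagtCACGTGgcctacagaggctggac
Gaa, chr11:119267806-119267845, plus strand: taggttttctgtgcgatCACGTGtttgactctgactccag
Naglu, chr11:101070004-101070043, plus strand: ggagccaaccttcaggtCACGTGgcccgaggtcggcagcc
Lamp1, chr8:13159116-13159155, plus strand: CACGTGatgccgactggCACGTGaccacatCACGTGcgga
Arsa, chr15:89477418-89477457, minus strand: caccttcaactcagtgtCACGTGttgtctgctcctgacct
Mcoln1, chr8:3500457-3500496, plus strand: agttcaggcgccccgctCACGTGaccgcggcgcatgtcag
Cln3, chr7:126583335-126583374, minus strand: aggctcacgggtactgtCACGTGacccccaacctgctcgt
The Cln3 window that holds the hexamer belongs to a start 2581 bases inside the gene, and its other window holds none. Counted from the annotated start, the hexamers of Gla began at positions -227 and -194 and that of Sgsh at -29. Lamp1 had 4 of them, which began at positions -61, -45, -28 and -15, and 3 stand in the stretch shown. Mcoln1 had hexamers at -71 and -45 and Cln3 at -149 and -121, and their stretches shown hold only those at -45 and -121. A match describes letters in a window and does not show binding.

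**Figure D2:**
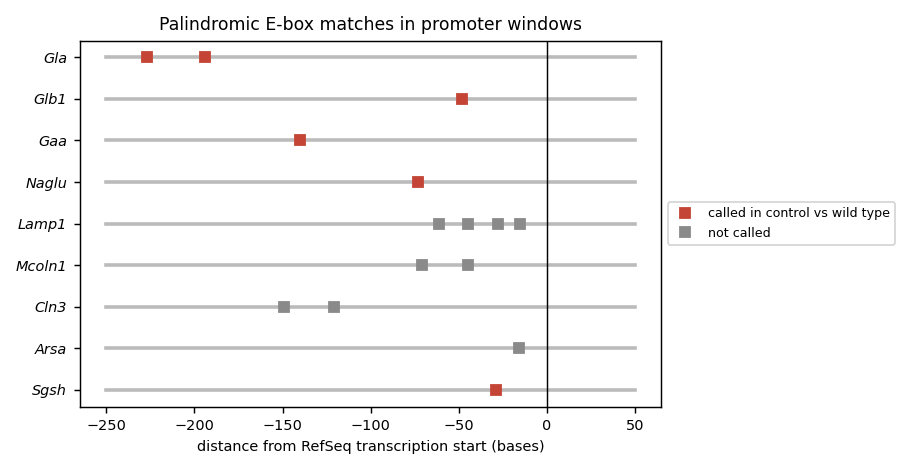
Position of each CACGTG in the promoter windows of the 9 members that hold one, in bases from the annotated transcript start. The matches of Lamp1 lie close together just before the start, and those of Gla lie far upstream.

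Control 5xFAD against wild-type microglia compares microglia that were never depleted between 5xFAD and wild-type mice. Y-linked transcripts were near absent in control libraries 1 and 3 and in wild-type library 2. No label gives the age of these mice. The comparison therefore does not isolate the 5xFAD setting. Of the 40 members, 16 rose (40%, against 10.1% of all 12505 tested genes) and 4 fell (10%, against 8.04% of all tested genes). Together 20 of the 40 were called, against 18.1% of all tested genes, and 28 (70%) had an unadjusted p under 0.05, against 31.8%. The median log2 fold change of the 40 was 0.41, beside -0.06 over all tested genes. In 16 members all control 5xFAD libraries lay above all wild-type libraries (40%, against 14.1% of all tested genes), and in 4 all lay below (10%, against 12.6%). With the 3 libraries that nearly lacked Y-linked transcripts left out, the median was 0.14, and Gla, Npc2, Gm2a, Cd63, Sgsh, Ctns and Pla2g15 kept their calls. In that setting Ids was also called higher, and Psap, Laptm5 and Cln3 were also called lower, in the lone control 5xFAD library. The 20 uncalled members had log2 fold changes between -0.44 and 0.59.

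**Figure D3:**
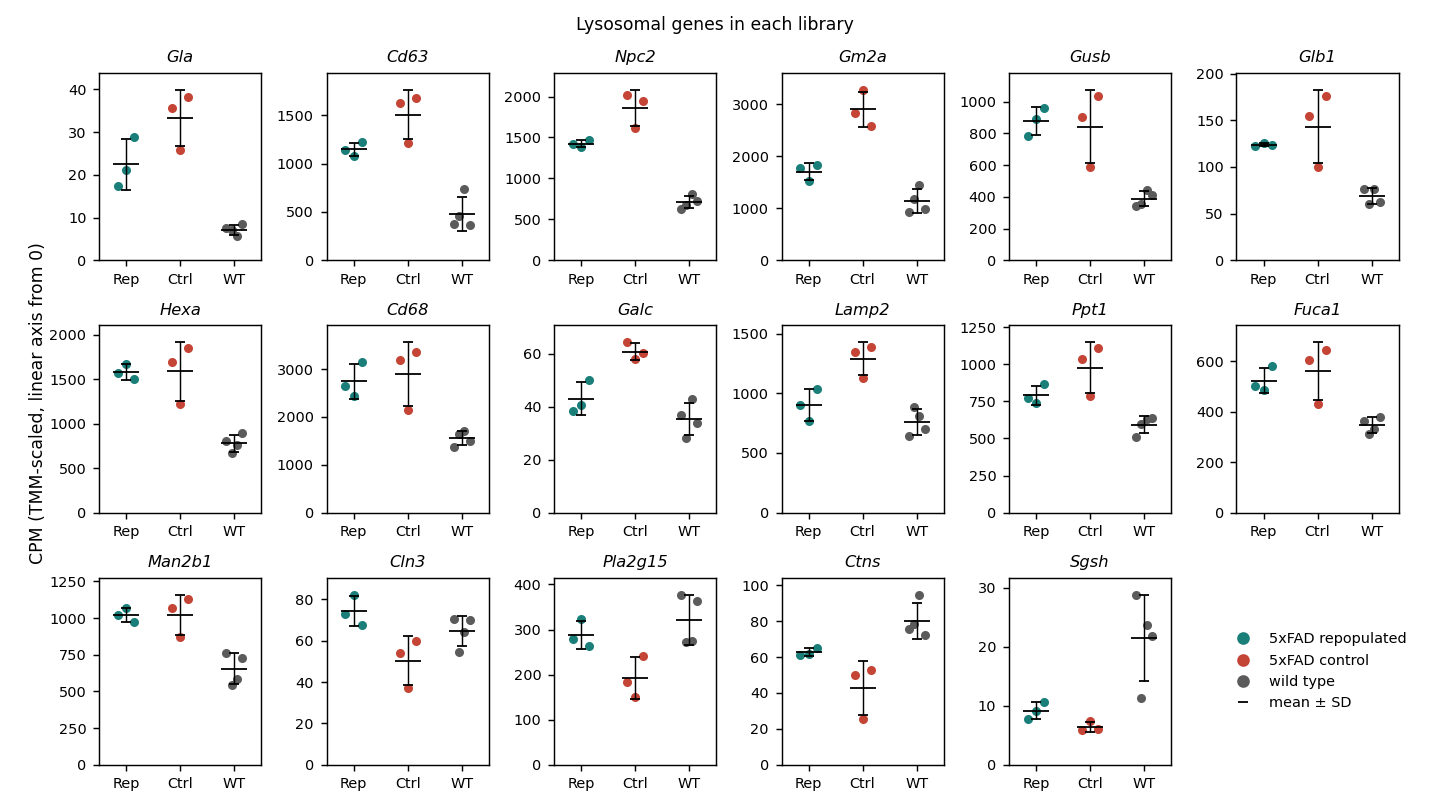
Level in CPM of the 17 members shown library by library, 1 point per library, with the mean and SD of each group, in repopulated (n = 3), control 5xFAD (n = 3) and wild-type microglia (n = 4). Gla, Npc2, Cd63 and Hexa lie higher in both 5xFAD groups than in every wild-type library, and Sgsh lies lower.

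Among the hydrolases of glycolipids and oligosaccharides, 6 of 9 rose in control 5xFAD microglia, against 10.1% of all tested genes. All 9 log2 fold changes were above 0, as were those of 5710 of the 12505 tested genes. Gla encodes alpha-galactosidase A, which trims terminal galactose off globotriaosylceramide (chrX:134588169-134601005, minus strand). It had 17.3, 21.2 and 28.9 CPM in repopulated microglia, 35.7, 25.9 and 38.2 CPM in control 5xFAD microglia and 7.57, 7.17, 5.64 and 8.45 CPM in wild-type microglia. All 6 libraries of 5xFAD mice lay above all 4 wild-type libraries, and Gla was 4.61-fold higher in control 5xFAD than in wild-type microglia (log2 fold change 2.21, SE 0.22, adjusted p = 7.99e-06, edgeR). Hexa, whose product works on GM2 ganglioside, had 1569.5, 1673 and 1499 CPM in repopulated microglia, 1692, 1221 and 1849 CPM in control 5xFAD microglia and 807, 667, 757 and 891 CPM in wild-type microglia. The groups of control 5xFAD and wild-type libraries did not overlap (log2 fold change 1.02, SE 0.16, adjusted p = 0.000416, edgeR). In the annotation 12.8% of the exonic bases of Hexa are shared with Tmem202 on the other strand, which had at most 5.17 CPM in any library. Glb1, beta-galactosidase, had 122, 126 and 124 CPM in repopulated microglia, 154, 99.9 and 176 CPM in control 5xFAD microglia and 76.1, 60.5, 76.3 and 62.0 CPM in wild-type microglia. Control library 2, the lowest of its group, was still above the highest wild-type library (log2 fold change 1.06, SE 0.17, adjusted p = 0.000556, edgeR). Man2b1, alpha-mannosidase, had 1021, 1070.1 and 975 CPM in repopulated microglia, 1069, 871 and 1131 CPM in control 5xFAD microglia and 761, 544, 587 and 724 CPM in wild-type microglia. Fuca1, alpha-L-fucosidase, had 504, 486 and 581 CPM in repopulated microglia, 605, 429.9 and 645 CPM in control 5xFAD microglia and 365, 313, 329.96 and 381 CPM in wild-type microglia. Both rose without overlap between the groups, Man2b1 by 0.65 (SE 0.15, edgeR adjusted p = 0.00808) and Fuca1 by 0.69 on the log2 scale (SE 0.15, edgeR adjusted p = 0.00540). Gaa, acid alpha-glucosidase, which degrades glycogen, rose by 0.82 (edgeR adjusted p = 0.0196), but control library 2 lay inside the wild-type range, and the adjusted p was 0.0990 without control library 1 and 0.0766 without control library 3. Manba, Neu1 and Aga, which act on mannosides, sialic acid and glycoasparagines, were not called. Of these, Manba (0.0406) and Aga (0.0476) had an edgeR adjusted p under the threshold without wild-type library 3.

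Of the 7 glycosaminoglycan hydrolases, 3 rose (against 10.1% of all tested genes) and 1 fell. A count of 1 of 7 is near the 8.04% of all tested genes that fell. Gusb, beta-glucuronidase, had 783, 888 and 962 CPM in repopulated microglia, 904, 589 and 1035 CPM in control 5xFAD microglia and 343, 357, 442 and 414 CPM in wild-type microglia. It rose 2.16-fold with no overlap between control 5xFAD and wild-type libraries (log2 fold change 1.11, SE 0.18, adjusted p = 0.000503, edgeR). Sgsh encodes heparan N-sulfatase, which removes sulfate at one step of heparan sulfate breakdown (chr11:119343489-119355510, minus strand). It had 7.73, 9.20 and 10.6 CPM in repopulated microglia, 5.96, 7.41 and 5.99 CPM in control 5xFAD microglia and 28.8, 11.4, 23.7 and 21.9 CPM in wild-type microglia. All 6 libraries of 5xFAD mice lay below all 4 wild-type libraries, and Sgsh was 3.32-fold lower in control 5xFAD than in wild-type microglia (log2 fold change -1.73, SE 0.28, adjusted p = 0.000657, edgeR). In the annotation 21.6% of the exonic bases of Sgsh also belong to Card14 on the other strand; the sources used here do not say whether counting used strand, so reads of the pair may be mixed. Arsb, arylsulfatase B of dermatan sulfate breakdown, rose by 0.53 on the log2 scale (edgeR adjusted p = 0.0101), with 32.3% of its exonic bases shared with Gm26527 on the other strand. Naglu, another enzyme of heparan sulfate breakdown, rose by 0.57 at an edgeR adjusted p of 0.0484, close to the threshold. Its call was lost without any one of 8 libraries (adjusted p between 0.0634 and 0.177). Ids, Idua and Galns, which also act on glycosaminoglycans, were not called. Galns had an edgeR adjusted p of 0.0143 without wild-type library 1.

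Of the 6 sphingolipid enzymes and activators, 2 rose, against 10.1% of all tested genes. Gm2a encodes the GM2 activator, which lifts GM2 ganglioside out of the membrane for beta-hexosaminidase. It had 1772, 1521 and 1836 CPM in repopulated microglia, 2841, 3274 and 2595 CPM in control 5xFAD microglia and 938, 1173, 1459 and 996 CPM in wild-type microglia. Repopulated libraries lay between control 5xFAD and wild-type libraries with no overlap on either side, and Gm2a was 2.54-fold higher in control 5xFAD than in wild-type microglia (log2 fold change 1.35, SE 0.17, adjusted p = 6.34e-05, edgeR). Galc, the galactosylceramidase that acts on the main glycolipid of myelin, had 38.4, 40.8 and 50.1 CPM in repopulated microglia, 64.3, 57.9 and 60.2 CPM in control 5xFAD microglia and 36.9, 28.2, 42.9 and 34.0 CPM in wild-type microglia. Control 5xFAD libraries stood above all others (against wild type: log2 fold change 0.78, SE 0.16, adjusted p = 0.00331, edgeR). Oligodendrocytes also express Galc. Their 8 markers summed to 78.0 to 83.0 CPM in repopulated, 56.9 to 68.7 CPM in control 5xFAD and 63.5 to 141 CPM in wild-type libraries. The part of these cells in the Galc values was not tested. Arsa, Smpd1, Asah1 and Psap were not called, with log2 fold changes between -0.44 and 0.26. Psap, the precursor of the saposins, showed the widest spread of all members among control 5xFAD libraries, with 542, 291 and 635 CPM in control libraries 1 to 3.

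Among the 5 genes of sterol and other lipid handling, Npc2 rose and Pla2g15 fell. Counts of 1 of 5 are near the 10.1% of all tested genes that rose and the 8.04% that fell. Npc2 encodes the soluble protein that hands cholesterol to NPC1 in the lysosomal membrane. It had 1422, 1382 and 1472 CPM in repopulated microglia, 2019.7, 1613 and 1946 CPM in control 5xFAD microglia and 633, 681, 812 and 728 CPM in wild-type microglia. The 3 groups did not overlap, with repopulated libraries between the others, and Npc2 was 2.61-fold higher in control 5xFAD than in wild-type microglia (log2 fold change 1.38, SE 0.14, adjusted p = 7.99e-06, edgeR). Npc1, its membrane partner, differed by -0.02 (SE 0.13, 95% interval -0.28 to 0.23) and was not called. Pla2g15, a lysosomal phospholipase A2, had 278, 323 and 263 CPM in repopulated microglia, 183, 149.9 and 242 CPM in control 5xFAD microglia and 377, 272, 275 and 363 CPM in wild-type microglia. Control 5xFAD libraries lay below all others (log2 fold change -0.75, SE 0.18, adjusted p = 0.00929, edgeR). Lipa, lysosomal acid lipase, and Scarb2, which escorts glucocerebrosidase to the lysosome, were not called. Lipa had an edgeR adjusted p of 0.0192 without control library 2 and of 0.0372 without wild-type library 3.

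Of the 9 genes classed as membrane proteins, 3 rose (against 10.1% of all tested genes) and 1 fell. A count of 1 of 9 is near the 8.04% of all tested genes that fell. Cd63 had 1142, 1079 and 1218 CPM in repopulated microglia, 1623, 1217 and 1677 CPM in control 5xFAD microglia and 376, 455, 739 and 361 CPM in wild-type microglia. All 5xFAD libraries lay above all wild-type libraries, of which library 3 was the highest, and Cd63 was 3.12-fold higher in control 5xFAD microglia (log2 fold change 1.64, SE 0.22, adjusted p = 0.000119, edgeR). Cd68 had 2646, 2441 and 3137 CPM in repopulated microglia, 3187, 2140.2 and 3360.1 CPM in control 5xFAD microglia and 1371, 1642, 1713 and 1497 CPM in wild-type microglia. Its control 5xFAD libraries were above all wild-type libraries (log2 fold change 0.90, SE 0.17, adjusted p = 0.00216, edgeR). Lamp2, a heavily glycosylated protein of the limiting membrane that also serves chaperone-mediated autophagy, had 903, 767 and 1036 CPM in repopulated microglia, 1350.3, 1132 and 1386 CPM in control 5xFAD microglia and 643, 884, 807 and 698 CPM in wild-type microglia. It rose in control 5xFAD microglia without overlap (log2 fold change 0.77, SE 0.15, adjusted p = 0.00299, edgeR). Lamp1, its close relative, had 1179 ± 172 CPM in control 5xFAD and 845 ± 231 CPM in wild-type microglia (SD, n = 3 and 4) and was not called (log2 fold change 0.48, SE 0.20, adjusted p = 0.105, edgeR). Ctns, cystinosin, which exports cystine, had 61.2, 61.9 and 65.3 CPM in repopulated microglia, 50.2, 25.7 and 52.6 CPM in control 5xFAD microglia and 75.4, 78.3, 94.8 and 72.5 CPM in wild-type microglia. Control library 2 was lower than the rest, and all control 5xFAD libraries lay below all wild-type libraries (log2 fold change -0.91, SE 0.20, adjusted p = 0.00695, edgeR). Laptm5, Laptm4a, the cation channel gene Mcoln1 and Cln3 were not called. Of the 4 hydrolases of proteins and nucleic acids, Ppt1, the thioesterase that removes palmitate from proteins, had 772, 743 and 865 CPM in repopulated microglia, 1036, 786 and 1112 CPM in control 5xFAD microglia and 508, 599, 629.8 and 639.7 CPM in wild-type microglia and rose (log2 fold change 0.72, SE 0.15, adjusted p = 0.00343, edgeR). Acp2, lysosomal acid phosphatase, fell by 0.40 on the log2 scale (edgeR adjusted p = 0.0293), a call that was lost without control library 1 (0.150), control library 3 (0.0737), wild-type library 1 (0.0647), wild-type library 4 (0.0783) or repopulated library 1 (0.0523). Tpp1 and Dnase2a were not called. In this class 1 of 4 rose and 1 of 4 fell, counts near the 10.1% and 8.04% of all tested genes.

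**Figure D4:**
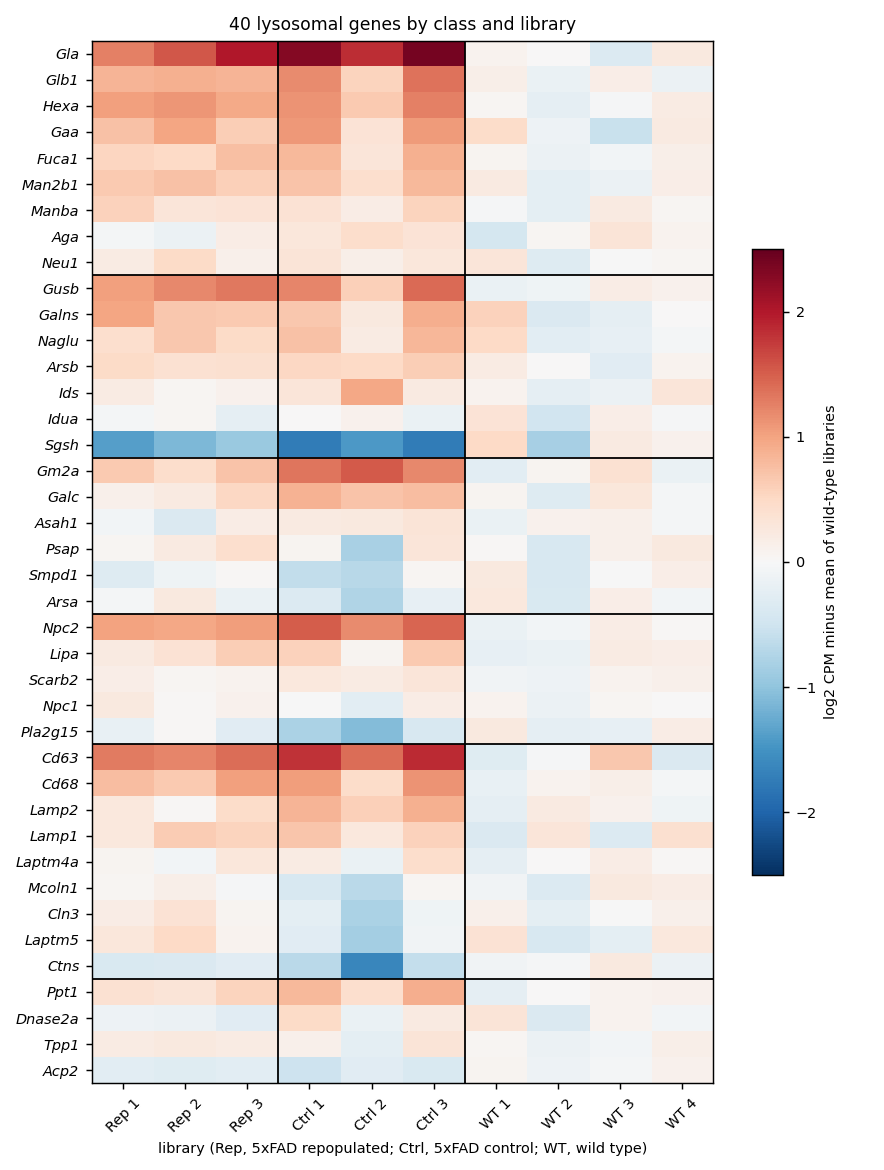
Level of the 40 members in each library as log2 CPM minus the mean of the wild-type libraries, members grouped by class and libraries grouped as repopulated, control 5xFAD and wild type. Gla, Cd63, Npc2, Gm2a, Hexa, Gusb and Glb1 are above the wild-type mean in all 6 libraries of 5xFAD mice, and Sgsh is below it.

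Repopulated against control 5xFAD microglia compares microglia after depletion and return with undepleted ones in mice of the same genotype. All 3 repopulated libraries held Y-linked transcripts, which control libraries 1 and 3 nearly lacked. No label gives the age of the control mice. The comparison therefore does not isolate depletion and return. No member was called in either direction (0 of 40), against 0.352% of all tested genes called higher and 0.216% called lower, and 0 of 40 is near that background. At an unadjusted p under 0.05 there were 9 members (22.5%), against 18.5% of all tested genes. DESeq2 called 2 members higher (Pla2g15 and Laptm5) and 3 lower (Gm2a, Lamp2 and Npc2), against 1.68% of all genes called higher and 1.82% called lower by DESeq2. These DESeq2 shares are over all 19782 genes of the deposited table, genes of low count included, and not over the 12505 tested ones. With limma-voom 1 member was called lower (Gm2a). The median log2 fold change of the 40 was -0.05, beside -0.00 over all tested genes. In 6 members all repopulated libraries lay above all control 5xFAD libraries (15%, against 15% of all tested genes), and in 9 all lay below (22.5%, against 15.7%). Across the 12226 genes with a known GC content, the log2 fold change of this comparison was correlated with GC content (Spearman's rho 0.44), and after correction for GC content and length the median of the members was -0.15 and none was called.

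Gm2a had the smallest p of the members in this comparison, with 1772, 1521 and 1836 CPM in repopulated and 2841, 3274 and 2595 CPM in control 5xFAD libraries. The groups did not overlap (log2 fold change -0.76, SE 0.18, adjusted p = 0.0682, 95% interval -1.12 to -0.41, edgeR). Without wild-type library 3, which shares in the estimate of the spread, the edgeR adjusted p of Gm2a was 0.0293. Lamp2 had 903, 767 and 1036 CPM in repopulated and 1350.3, 1132 and 1386 CPM in control 5xFAD libraries, again without overlap (log2 fold change -0.52, SE 0.16, adjusted p = 0.132, edgeR). Pla2g15 and Cln3 had the smallest p among members with higher values in repopulated microglia. For Pla2g15 there were 278, 323 and 263 CPM in repopulated and 183, 149.9 and 242 CPM in control 5xFAD libraries (log2 fold change 0.59, SE 0.19, adjusted p = 0.129, edgeR). Cln3, the gene of battenin, a lysosomal membrane protein lost in juvenile neuronal ceroid lipofuscinosis, had 73.1, 82.3 and 67.6 CPM in repopulated microglia, 54.2, 36.9 and 60.1 CPM in control 5xFAD microglia and 70.3, 54.5, 64.0 and 70.2 CPM in wild-type microglia. Every repopulated library was above every control 5xFAD library, with control library 2 the lowest (log2 fold change 0.56, SE 0.18, adjusted p = 0.132, edgeR). With control library 2 alone in its group, after the libraries that nearly lacked Y-linked transcripts were left out, Psap, Ctns and Cln3 were called higher in repopulated microglia (3 of 40, against 1.67% of all genes tested in that setting), by 1.06, 1.29 and 1.01 on the log2 scale. For Gla, the difference was -0.57 with a 95% interval of -1.01 to -0.12, and for Hexa it was -0.01 with an interval of -0.34 to 0.33, neither of which was called.

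**Figure D5:**
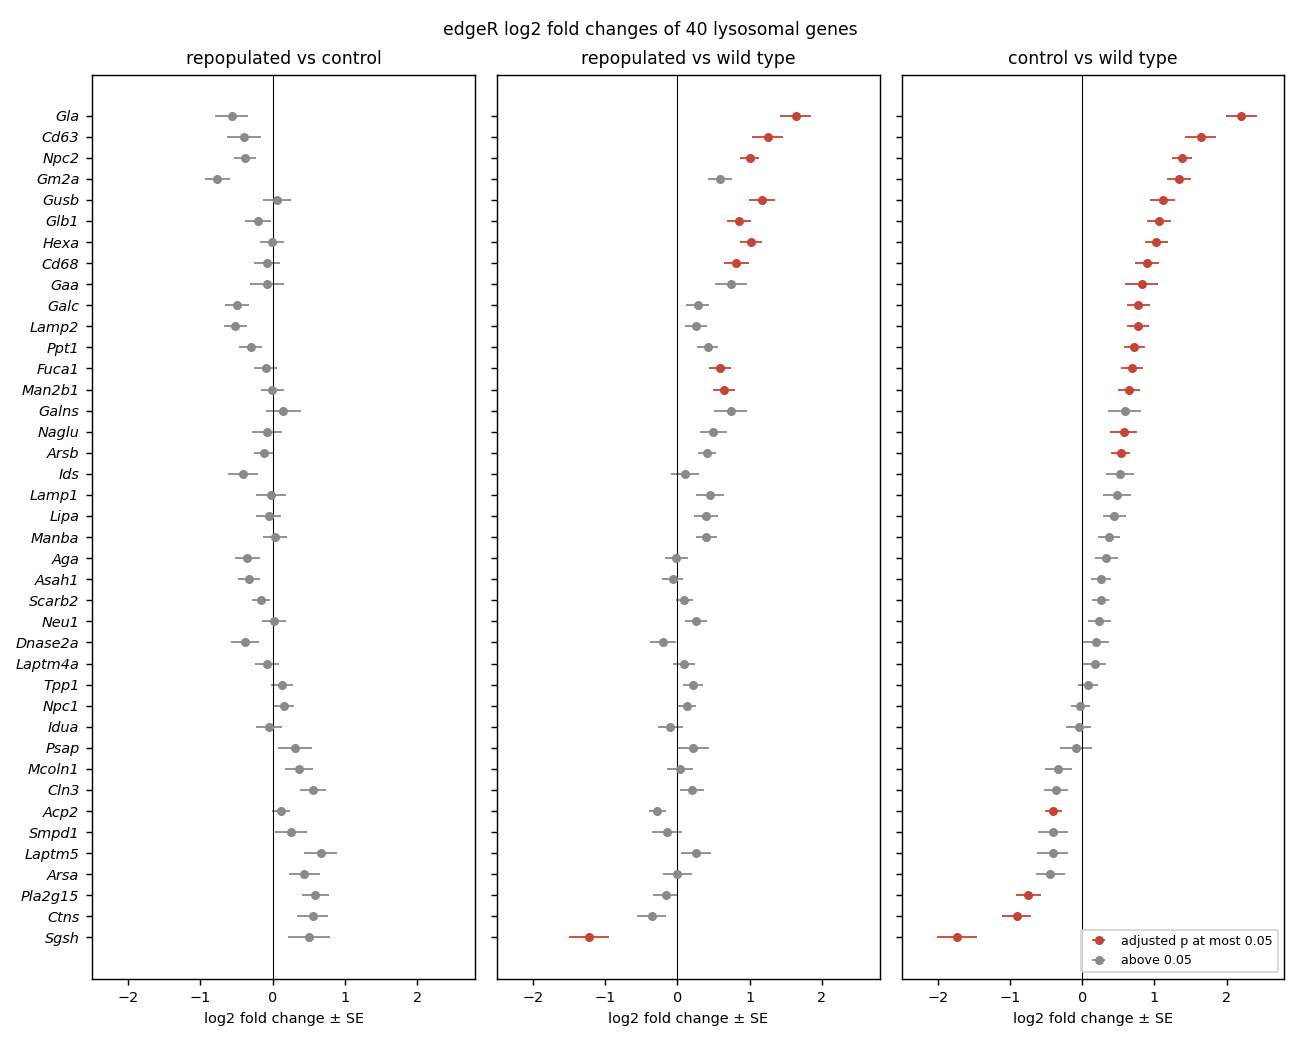
Log2 fold change of each member with its SE, 1 panel for each of the 3 comparisons; members called by edgeR are red and the others grey. In repopulated against control 5xFAD microglia no point is red and the values lie between -0.76 and 0.66.

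Repopulated against wild-type microglia asks how far the returned cells of 5xFAD mice stood from cells of wild-type mice. This comparison shares its wild-type libraries with control 5xFAD against wild type and its repopulated libraries with the comparison above. Of the 40 members, 9 rose (22.5%, against 3.4% of all tested genes) and 1 fell (2.5%, against 0.784%). Together 10 of the 40 were called, against 4.18% of all tested genes. The median log2 fold change was 0.26, beside -0.02 over all tested genes. In 17 members all repopulated libraries lay above all wild-type libraries (42.5%, against 9.13% of all tested genes), and in 3 all lay below (7.5%, against 6.82%). The 5 glycolipid and oligosaccharide hydrolases called rose on the log2 scale, Gla by 1.64 (adjusted p = 0.000260), Hexa by 1.02 (adjusted p = 0.00104), Glb1 by 0.85 (adjusted p = 0.00775), Man2b1 by 0.64 (adjusted p = 0.0218) and Fuca1 by 0.59 (adjusted p = 0.0361) in edgeR. The other 4 were Gusb with 1.17 (adjusted p = 0.000770), Npc2 with 1.00 (adjusted p = 0.000348), Cd63 with 1.25 (adjusted p = 0.00274) and Cd68 with 0.82 (adjusted p = 0.0112), and Sgsh fell (log2 fold change -1.22, SE 0.27, adjusted p = 0.0176, edgeR). Set beside control 5xFAD against wild type, Gusb had 1.17 here and 1.11 there, Hexa had 1.02 and 1.02, and Npc2 had 1.00 and 1.38 on the log2 scale. Gm2a, with 0.58, was not called (edgeR adjusted p = 0.0676), but was without control library 2 (0.0435) and without wild-type library 3 (0.0117). The other members called in control 5xFAD and not here were Lamp2, Galc, Ppt1, Arsb, Gaa, Naglu, Ctns, Pla2g15 and Acp2, and whether their 2 differences from wild type are unequal is what the uncalled test between repopulated and control 5xFAD microglia measures.

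In 4 members the call between repopulated and wild-type microglia was lost when 1 library was left out. Over all genes, 284 to 305 were called without 1 repopulated library, against 523 with all libraries. Log2 fold changes without 1 repopulated library lay between -1.34 and -1.11 for Sgsh, 0.61 and 0.68 for Man2b1, and 0.51 and 0.64 for Fuca1. Sgsh lost its call without repopulated library 1 (0.112), library 2 (0.0887) or library 3 (0.0521), as edgeR adjusted p. Man2b1 lost its call without any 1 repopulated library (adjusted p between 0.0624 and 0.112) and without wild-type library 2 (0.0722). Fuca1 lost its call without any 1 repopulated library, without control library 1 or without wild-type library 2 (between 0.0574 and 0.184), and Cd68 without repopulated library 3 (0.0756). Conversely, Gaa (0.0260), Naglu (0.0238) and Galns (0.0129) passed without wild-type library 1. Gla, Hexa, Glb1, Gusb, Npc2 and Cd63 kept their calls whichever library was left out, and Cd63 had an edgeR adjusted p of 0.05005 after the correction for GC content and length.

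The remaining 20 members were called in none of the 3 comparisons, and their levels follow as mean ± SD in repopulated, control 5xFAD and wild-type microglia (n = 3, 3 and 4). Asah1, acid ceramidase, had 808 ± 153, 1013 ± 32.9 and 846 ± 80.2 CPM, with all control 5xFAD libraries above all libraries of the other 2 groups. Psap had 605 ± 76.5, 489 ± 178 and 520.2 ± 94.0 CPM, and Smpd1, acid sphingomyelinase, had 27.4 ± 3.43, 23.0 ± 6.86 and 30.3 ± 5.78 CPM. Both groups of 5xFAD libraries overlapped the wild-type libraries in these last 2 genes. Laptm5 had 1999 ± 280.2, 1262 ± 321 and 1672 ± 422 CPM, and every repopulated library lay above every control 5xFAD library (log2 fold change 0.66, SE 0.23, adjusted p = 0.151, edgeR). Lamp1 had 1159 ± 158, 1179 ± 172 and 845 ± 231 CPM, and wild-type libraries 2 and 4 were higher than libraries 1 and 3. Mcoln1, which lets calcium out of the lysosome, had 41.2 ± 2.46, 31.9 ± 8.24 and 40.2 ± 7.37 CPM. Tpp1, a serine protease that takes tripeptides off the ends of proteins, had 498 ± 8.39, 453 ± 87.0 and 428 ± 38.9 CPM, and its 95% interval for repopulated against control 5xFAD microglia was -0.16 to 0.43 on the log2 scale. Lipa had 161 ± 22.8, 167 ± 33.9 and 122 ± 17.4 CPM, with all repopulated libraries above all wild-type libraries (log2 fold change 0.39, SE 0.16, adjusted p = 0.246, edgeR). Ids, which takes sulfate off iduronic acid in heparan and dermatan sulfate, had 27.3 ± 1.55, 36.2 ± 10.9 and 25.3 ± 4.42 CPM, and control library 2 was the highest of all libraries. Galns, of keratan sulfate breakdown, had 25.4 ± 3.34, 22.9 ± 5.19 and 15.2 ± 4.74 CPM, with repopulated libraries above all wild-type libraries. Neu1, the lysosomal sialidase, had 54.8 ± 7.42, 54.0 ± 3.20 and 45.7 ± 7.99 CPM, and Dnase2a, the acid DNase, had 38.3 ± 2.26, 50.2 ± 11.02 and 44.1 ± 8.71 CPM. For Npc1, Scarb2, Laptm4a, Manba, Aga, Idua, Arsa and Cln3 the log2 fold changes against wild type lay between -0.10 and 0.40 in repopulated microglia and between -0.44 and 0.37 in control 5xFAD microglia.

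The spread within groups differed between members. The coefficient of variation of the CPM over a group's libraries had a median of 10.1% in repopulated, 19.4% in control 5xFAD and 16.1% in wild-type microglia. It was lowest for Glb1 (1.45%) and highest for Gla (26.2%) among repopulated libraries, and lowest for Asah1 (3.25%) and highest for Psap (36.4%) among control 5xFAD libraries. In wild-type libraries Cd63 varied most (36.4%), with 376, 455, 739 and 361 CPM in libraries 1 to 4. Library 3 of this group also held most of the neuron marker RNA and correlated least with its own group (mean r 0.956, against 0.970 to 0.976). The share of this library in the values of Cd63 was not tested beyond leaving it out, under which Cd63 was called in both comparisons with wild type.

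Other genes of the lysosome were followed in 3 further lists. Of 31 further lysosomal enzyme genes, without cathepsins, 12 rose (38.7%, against 10.1% of all tested genes) and 5 fell (16.1%, against 8.04%) in control 5xFAD against wild-type microglia. None of the 31 was called in repopulated against control 5xFAD microglia, near the 0.568% of all tested genes. In repopulated against wild-type microglia 9 rose (29.0%, against 3.4% of all tested genes). Cpq, a lysosomal carboxypeptidase gene, had 95.9, 119.6 and 94.6 CPM in repopulated microglia, 128, 102 and 135 CPM in control 5xFAD microglia and 21.6, 16.9, 35.8 and 29.5 CPM in wild-type microglia. Both 5xFAD groups lay above wild type (log2 fold change 1.99, SE 0.21, adjusted p = 2.80e-05 for repopulated and log2 fold change 2.23, SE 0.21, adjusted p = 5.80e-06 for control 5xFAD microglia, edgeR). Ggh, gamma-glutamyl hydrolase of folate breakdown, rose by 0.70 in repopulated and 1.22 in control 5xFAD microglia, Dpp7, a dipeptidyl peptidase, by 1.46 and 1.48, and Smpdl3a, an acid sphingomyelinase-like phosphodiesterase, by 0.73 and 1.09 on the log2 scale. Pld3, a lysosomal nuclease, rose by 1.22 in repopulated and 0.92 in control 5xFAD microglia. The 5 that fell in control 5xFAD microglia were Hyal1, Hyal2, Pld4, Hgsnat and Lgmn. Of 27 further lysosomal membrane genes 26 were tested, of which 6 rose (23.1%) and 3 fell (11.5%, near the 8.04% of all tested genes) in control 5xFAD against wild-type microglia, with Slc15a3, a peptide and histidine transporter, at 1.09 on the log2 scale. Ostm1, a partner of the chloride transporter ClC-7, rose by 0.69 and Slc11a1, a metal ion transporter of phagocytes, by 0.57, whereas Tpcn1, a two-pore cation channel, fell by 0.69. In repopulated against wild-type microglia 2 of the 26 rose (7.69%, against 3.4% of all tested genes), Mfsd12, a cysteine importer, by 0.86 and Slc11a1 by 0.48. Among 17 genes of enzyme targeting and lysosomal regulation, 16 were tested, of which 2 rose (12.5%, near the 10.1% of all tested genes) and 1 fell (6.25%, near 8.04%): Gnptab, which makes the mannose 6-phosphate tag, rose by 0.93 and Vps29 of the retromer by 0.63 in control 5xFAD against wild-type microglia, and Tfe3 fell by 0.51 (log2 fold change -0.51, SE 0.17, adjusted p = 0.0479, edgeR). None of the 16 was called in repopulated against control 5xFAD microglia (against 0.568% of all tested genes) or against wild-type microglia (against 4.18%). A count of 0 of 16 is near these shares.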

How the data were processed

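RNA was purified from the sorted microglia with TRIzol, and libraries were made by a Smart-Seq protocol from 1 ng of RNA, per the labels' protocols. HISAT and Bowtie2 are named as tools and GRCm38.p6 as the build, per the submitters' processing notes; which program counted reads, with what annotation and on which strand, is not given in the sources used here. The deposited table holds estimated read counts, TPM and FPKM for 10 libraries, and the FPKM values were not used. In the deposited expected counts 20.06% of the values above 0 were not whole (tolerance 0.001), so they were rounded before use. Genes were filtered with filterByExpr in edgeR 4.0.16 (R 4.3.3), scaled by the trimmed mean of M values and tested by robust quasi-likelihood tests in 1 model of the 3 groups (10 libraries, biological coefficient of variation 27.29%), with Benjamini-Hochberg adjustment over 12505 genes. Fold changes use a prior count of 0.125. TPM were used as the authors deposited them, for levels only. Library totals lay between 18501136 and 23286814. Alternatives used DESeq2 1.42.0, limma 3.58.1 (voom), other scalings and filters, each comparison's groups alone, each library left out, a replicate block, a term for Y-linked transcripts and a correction for GC content and length. The fitting was tested on simulated data. Promoter windows and gene positions came from RefSeq (GRCm38.p6), exon overlaps from GENCODE M21.

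The members, the further lists and the rule for which members are shown library by library were chosen with earlier results of these data known. That rule took the 16 members with the smallest adjusted p in control 5xFAD against wild type, the 4 with the smallest p in repopulated against control 5xFAD, the 8 with the smallest adjusted p in repopulated against wild type and the member with the highest TPM of each of 6 classes, which gave 17. Promoter windows of Aga, Galns, Asah1 and Npc1 were not used here.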

Additional observations from a re-analysis of the deposited data

How the results depend on the processing

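Over 23 alternative settings, 30 fold changes of the members shown library by library were followed. They were 16 called in control 5xFAD against wild-type and 10 in repopulated against wild-type microglia, and the 4 with the smallest p in repopulated against control 5xFAD microglia. Direction and call were kept in 651 of 690 values, the call was lost in 30 and gained in 9, and the direction reversed in 0. The 16 were picked for the smallest adjusted p, so this tally leaves out the weaker calls of control 5xFAD against wild-type microglia. Of those, Naglu, Acp2, Gaa and Arsb lost the call in 13, 10, 4 and 1 of 21 alternatives. Among all 51 fold changes of the 17 members shown library by library, 7 uncalled ones, all in repopulated against control 5xFAD microglia (Hexa, Man2b1, Gusb, Fuca1, Cd68, Glb1 and Ppt1), changed sign under 1 to 10 of 21 alternatives. With 1 library left out, 14 to 18 members rose and 3 to 4 fell in control 5xFAD against wild-type microglia, 0 rose and 0 to 1 fell in repopulated against control 5xFAD microglia, and 6 to 12 rose and 0 to 1 fell in repopulated against wild-type microglia. The shares of all tested genes were 6.44% to 12.3% and 3.72% to 11.3%, 0% to 1.67% and 0% to 0.989%, and 2.02% to 4.72% and 0.0927% to 0.922% in that order. Without the 3 libraries that nearly lacked Y-linked transcripts, control 5xFAD library 2 stood alone in its group. The median log2 fold change of the members was then 0.14 in control 5xFAD against wild-type microglia, against 0.41 with all libraries. In repopulated against control 5xFAD microglia it was 0.28, against -0.05 with all libraries. In repopulated against control 5xFAD microglia DESeq2 called 2 members higher and 3 lower (against 1.68% and 1.82% of all 19782 genes of the deposited table). In the same comparison 1 member was called lower by limma-voom, with no filter on low counts, with the compared groups alone and at an adjusted p of at most 0.1. The shares of all genes called lower in these settings lay between 0.38% and 2.43%. The decrease of Sgsh in repopulated against wild-type microglia was not called at 0.01 (0 members lower). Correlations of the deviations of same-numbered libraries lay between -0.19 and 0.13. Without differently numbered pairs beside them, they cannot show whether the replicate numbers pair the libraries. With the replicate block, 15 members rose and 3 fell in control 5xFAD against wild type (against 7.17% and 4.53% of all tested genes). There were 0 and 0 in repopulated against control 5xFAD (against 0.104% and 0.096%), and 9 and 0 in repopulated against wild type (against 2.64% and 0.368%). The cause of these changes was not tested.

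Over all genes, the number called in repopulated against control 5xFAD microglia was 71, between 0 and 328 with 1 library left out, 630 with the compared groups alone, 693 with DESeq2 and 1 with a term for Y-linked transcripts. In control 5xFAD against wild-type microglia it was 2265, between 1315 and 2910 with 1 library left out.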
